A study of Mus musculus with 9 samples.

Results

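The simple epithelial keratins were described here as the 5 genes Krt7, Krt8, Krt18, Krt19 and Krt20, out of 29678 genes in the count tables. They were chosen by name, with earlier results of these data known. They are the rows whose Ensembl identifier carries 1 of these symbols in GENCODE M21. All 5 had enough counts to be tested among 17967 genes. RNA was sequenced from mouse kidneys taken 24 h after reperfusion. The BHBNa_bIRI group (3 libraries) had bilateral ischemia-reperfusion injury, in which the blood supply of both kidneys is stopped and restored, after pretreatment with the sodium salt of BHB, the usual short form of the ketone body beta-hydroxybutyrate. The bIRI group had the injury alone and is represented by 2 libraries, replicates 1 and 3, because the table of replicate 2 equalled the mean of those 2, rounded down, in all 29678 rows. The Sham group (3 libraries) had the operation without the injury. No dose, route or timing of the pretreatment, and no strain, sex, age or number of mice, was given in the sources used here. Nothing in the labels says that libraries came from separate animals, so p-values measure the spread between libraries, which may be technical.

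Keratins are the intermediate filament proteins of epithelial cells. A filament is built from pairs of a type I chain (here Krt18, Krt19 and Krt20) and a type II chain (here Krt7 and Krt8), so neither chain forms filaments alone. Krt8 with Krt18 is the pair typical of simple, single-layered epithelia. Krt7 and Krt19 are known from ducts, including the collecting duct of the kidney, and Krt20 is best known from the intestine and from the umbrella cells that line the urinary tract. Simple keratins are known to rise in stressed and injured epithelia.

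Libraries held 33477985 to 45909063 counts, and 3 counts corresponded to 0.0646 to 0.0815 CPM, the read count scaled to library size after TMM normalisation, which is the scale of all levels below. The bIRI libraries stood apart from each other, with a root mean square log2 difference of 1.17 over genes, against 0.508 to 0.670 between libraries of the other groups. Mitochondrial transcripts took 24.0 to 30.3% of counts in BHBNa_bIRI libraries, 15.9% in each bIRI library and 11.2 to 13.3% in Sham libraries, and the part of this share in the keratin results was not tested. Markers of proximal tubule, thick ascending limb and podocyte, as of kidney, were above 0 in every library. The 6 proximal tubule markers summed to 1593 to 1753 CPM in BHBNa_bIRI libraries, 1193 and 1390 CPM in bIRI libraries, and 10920 to 12560 CPM in Sham libraries. In whole-kidney RNA, fewer cells of a type and less RNA per cell cannot be told apart.

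All 5 keratin genes were higher in bIRI than in Sham libraries and higher in BHBNa_bIRI than in Sham libraries, without overlap between groups. The size of the increase differed widely within the family, from Krt7 at 2.51-fold to Krt20 at 1389-fold in bIRI against Sham kidneys. The fold of Krt20 rests on a pair of bIRI libraries that differed 17.2-fold, with a log2 fold change of 7.19 without bIRI replicate 1 and 11.36 without bIRI replicate 3, against 10.44 with both. Between the injured groups, Krt7, Krt18 and Krt19 were called higher in BHBNa_bIRI than in bIRI libraries, Krt8 had its libraries apart but was not called, and the libraries of Krt20 overlapped.

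**Figure D1:**
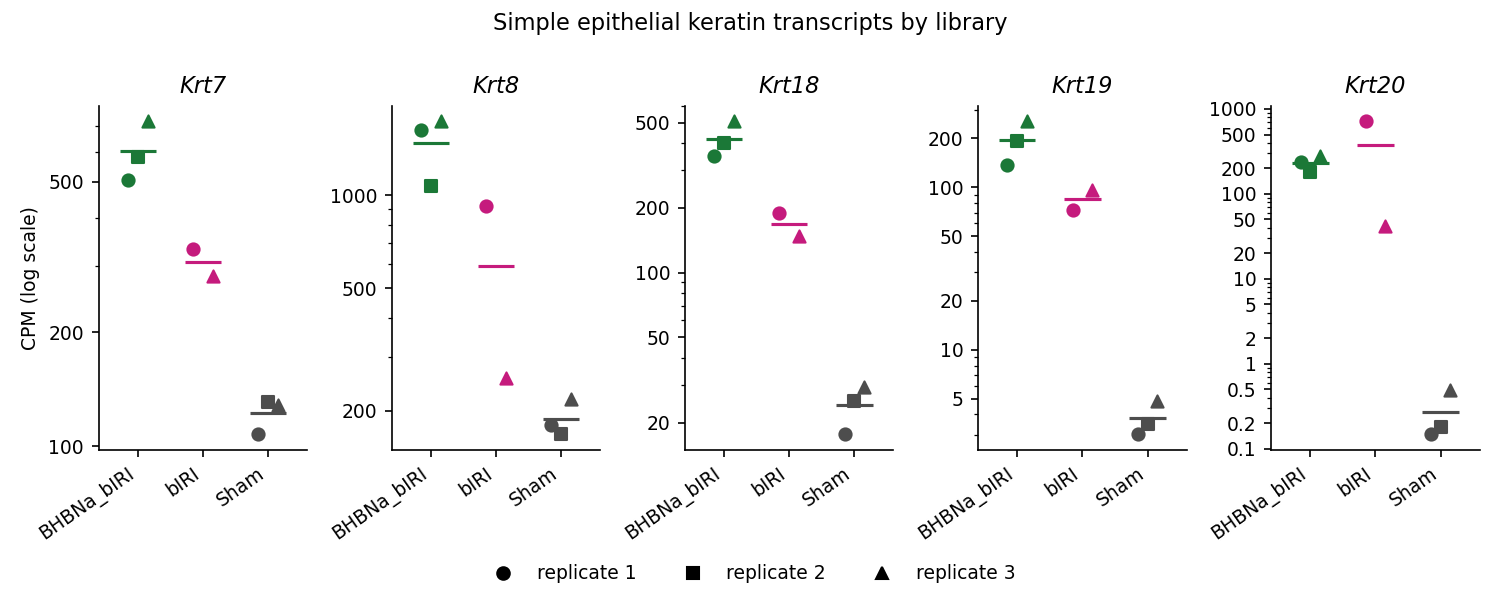
CPM (log axis, a different range in each panel) of the 5 keratin genes in each library, by group, with a line at the group mean. The 3 Sham libraries lie lowest in each panel, and the bIRI libraries lie close together for Krt7, Krt18 and Krt19 but far apart for Krt8 and Krt20.

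Of the type II genes, Krt7 (ENSMUSG00000023039) is the ductal chain and lies on GRCm38 chromosome 15, from 101411043 to 101430313 on the plus strand. Krt7 had 504, 582 and 722 CPM in BHBNa_bIRI libraries, 331 and 282 CPM in bIRI libraries, and 108, 131 and 128.5 CPM in Sham libraries. The 3 groups formed separate steps with no overlap. The difference between BHBNa_bIRI and bIRI was a log2 fold change of 0.97 (SE 0.23, adjusted p = 0.0325, edgeR quasi-likelihood test). Against Sham, the log2 fold change was 1.33 in bIRI (SE 0.22, adjusted p = 0.00175, edgeR) and 2.30 in BHBNa_bIRI (SE 0.21, adjusted p = 5.09e-05). Krt7 had the smallest increase over Sham of the 5 genes in both comparisons.

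Krt8 (ENSMUSG00000049382), the type II partner of Krt18, lies on chromosome 15 from 101996698 to 102004482 on the minus strand. Krt8 had 1625, 1073 and 1736 CPM in BHBNa_bIRI libraries, 925 and 255 CPM in bIRI libraries, and 179.9, 168 and 218 CPM in Sham libraries. No groups overlapped, but bIRI replicate 3 was close to the Sham libraries, and the higher bIRI library was 3.63 times the lower. The log2 fold change between BHBNa_bIRI and bIRI was 1.32 (95% interval 0.26 to 2.39) and was not called (adjusted p = 0.0848, edgeR quasi-likelihood test). It was called with DESeq2 (1.34, adjusted p = 0.0151). In edgeR it was 2.59 without bIRI replicate 1 and 0.67 without bIRI replicate 3, where 1 bIRI library is left. Between bIRI and Sham it was 1.64 (SE 0.45, adjusted p = 0.0195, edgeR). This call rested on bIRI replicate 1, since the log2 fold change was 0.36 without that library, which leaves 1 bIRI library. Krt8 missed the threshold in bIRI against Sham without Sham replicate 1 (1.61, adjusted p = 0.0675, edgeR) and without Sham replicate 2 (1.55, adjusted p = 0.0689, edgeR). Between BHBNa_bIRI and Sham the log2 fold change of Krt8 was 2.97 (SE 0.44, adjusted p = 0.000714, edgeR), and it lay between 2.84 and 3.16 whichever library was left out.

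Krt18 (ENSMUSG00000023043), the type I partner of Krt8, lies on chromosome 15 from 102028180 to 102032027 on the plus strand, 23697 bases from Krt8. It is the type I gene next to a cluster of type II genes. Krt18 had 351, 402.5 and 508 CPM in BHBNa_bIRI libraries, 189.8 and 149 CPM in bIRI libraries, and 17.7, 25.1 and 29.3 CPM in Sham libraries. Each group was clear of the others, and the bIRI libraries differed by 1.27 times only. The log2 fold change was 1.31 in BHBNa_bIRI against bIRI (SE 0.27, adjusted p = 0.0288, edgeR quasi-likelihood test), 2.82 in bIRI against Sham (SE 0.26, adjusted p = 0.000129) and 4.13 in BHBNa_bIRI against Sham (SE 0.26, adjusted p = 1.46e-05).

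Krt19 (ENSMUSG00000020911), a short type I keratin of ducts, lies on chromosome 11 from 100140810 to 100148665 on the minus strand. Krt19 had 137, 192 and 256 CPM in BHBNa_bIRI libraries, 72.1 and 96.6 CPM in bIRI libraries, and 3.03, 3.52 and 4.81 CPM in Sham libraries. It was low in each Sham library and in separate ranges in the injured groups. The log2 fold change was 1.21 in BHBNa_bIRI against bIRI (SE 0.30, adjusted p = 0.0354, edgeR quasi-likelihood test), 4.48 in bIRI against Sham (SE 0.31, adjusted p = 4.915e-05) and 5.69 in BHBNa_bIRI against Sham (SE 0.32, adjusted p = 1.15e-05).

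Krt20 (ENSMUSG00000035775), the type I keratin of gut and umbrella cells, lies on chromosome 11 from 99428403 to 99438150 on the minus strand. Krt20 had 240.5, 183 and 276 CPM in BHBNa_bIRI libraries, 719 and 41.9 CPM in bIRI libraries, and 0.149, 0.183 and 0.491 CPM in Sham libraries, where it rested on 6, 8 and 19 counts. The Sham libraries were nearly empty of Krt20, and the BHBNa_bIRI libraries lay between the bIRI libraries, which differed 17.2-fold. The log2 fold change was 10.44 in bIRI against Sham (SE 1.17, adjusted p = 0.000283, edgeR quasi-likelihood test) and 9.73 in BHBNa_bIRI against Sham (SE 1.13, adjusted p = 0.0002). By size of log2 fold change among the 17967 genes tested, Krt20 ranked 5 in bIRI against Sham and 13 in BHBNa_bIRI against Sham. Krt20 had enough counts to be tested through the injured groups only. A call of Krt20 against Sham could thus only be higher, so these folds and ranks are a description. Between BHBNa_bIRI and bIRI the log2 fold change of Krt20 was -0.71 (95% interval -2.51 to 1.10, adjusted p = 0.566, edgeR), an interval that spans both directions. Its direction depended on the bIRI library used. Krt20 was higher in BHBNa_bIRI without bIRI replicate 1 (log2 fold change 2.53) and lower without bIRI replicate 3 (log2 fold change -1.63). Each of these fits leaves 1 bIRI library and no spread within that group. Against Sham the log2 fold change in bIRI was 7.19 without bIRI replicate 1 and 11.36 without bIRI replicate 3.

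Promoter windows of 250 bases before to 50 bases after the RefSeq transcription start, from the RefSeq annotation of GRCm38.p6, are shown for Krt8 and Krt18, neighbouring partners that differed in the size of their increase, and for Krt20, which had the largest increase. RefSeq windows were matched for Krt7, Krt8, Krt18 and Krt20, 4 of the 5 genes. Capitals mark matches to TATAAA, the core of the TATA box, on either strand.
Krt8 (GRCm38.p6, chr15:102004293-102004592, minus strand): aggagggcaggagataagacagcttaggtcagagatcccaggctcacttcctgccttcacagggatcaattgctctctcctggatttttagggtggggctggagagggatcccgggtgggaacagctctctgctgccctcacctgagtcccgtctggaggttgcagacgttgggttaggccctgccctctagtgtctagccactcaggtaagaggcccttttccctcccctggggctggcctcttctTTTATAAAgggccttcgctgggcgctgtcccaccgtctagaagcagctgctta
Krt18 (GRCm38.p6, chr15:102027966-102028265, plus strand): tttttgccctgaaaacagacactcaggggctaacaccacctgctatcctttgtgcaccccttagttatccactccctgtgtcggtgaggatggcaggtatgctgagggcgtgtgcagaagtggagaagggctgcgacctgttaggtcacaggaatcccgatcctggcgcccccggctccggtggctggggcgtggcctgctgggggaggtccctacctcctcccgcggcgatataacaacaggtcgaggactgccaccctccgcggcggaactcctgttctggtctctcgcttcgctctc
Krt20 (GRCm38.p6, chr11:99438104-99438403, minus strand): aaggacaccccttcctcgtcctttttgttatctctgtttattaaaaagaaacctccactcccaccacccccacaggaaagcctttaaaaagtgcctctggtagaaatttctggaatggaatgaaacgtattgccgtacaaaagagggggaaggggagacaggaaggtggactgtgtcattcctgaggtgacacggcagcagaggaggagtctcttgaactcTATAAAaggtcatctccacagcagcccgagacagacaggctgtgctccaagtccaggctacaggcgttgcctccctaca
Matches to TATAAA, to the GC box GGGCGG and to the AP-1 site TGANTCA, in which N is any base, were sought on both strands. The first base of TATAAA was 29 bases before the start of Krt20. In Krt8 it was matched on both strands, with first bases 1 and 3 before the start and an overlap. Of 32851 mouse promoter windows, 13.6% held it. The GC box GGGCGG was found 4 times in the window of Krt7, none of them overlapping, and 35.7% of windows held it. The AP-1 site TGANTCA, held by 7.81% of windows, was in none of the 4 windows, and none of the 3 motifs was in that of Krt18. These matches describe the letters in these windows only.

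In bIRI against Sham, 5 of 5 keratin genes were called higher, where 18.9% of all genes tested were called higher and 16.2% lower, and 5 of 5 were higher without overlap, where 28.7% of all genes were. Their median log2 fold change was 2.82, against 0.08 over all genes. In BHBNa_bIRI against Sham, 5 of 5 were called higher, against 21.3% of all genes called higher and 22.2% called lower, and 5 of 5 did not overlap and were higher, against 32.6% of all genes. The median log2 fold change was 4.13, against 0.04 over all genes. These comparisons share the Sham libraries. The 5 genes were chosen with earlier results of these data known, so their counts beside the shares of all genes are a description. Krt20, with 6, 8 and 19 counts in Sham libraries, had enough counts to be tested through the injured groups only. Its part in the counts and medians against Sham could therefore only be higher.

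In BHBNa_bIRI against bIRI, 3 of 5 keratin genes were called higher, where 4.88% of all genes tested were called higher and 8.65% lower. Their libraries did not overlap and were higher for 4 of 5 genes, where 22.2% of all genes did the same. The median log2 fold change was 1.21, against -0.05 over all genes. The fold changes of Krt7, Krt18 and Krt19 stayed positive in all 19 alternative analyses, with ranges of 0.82 to 1.15, 0.60 to 1.55 and 0.54 to 1.43, but the calls did not stay. Over the libraries left out in turn, adjusted p in edgeR reached 0.116 for Krt7, 0.115 for Krt18 and 0.119 for Krt19. Krt7 and Krt19 remained called only when bIRI replicate 1 was the library left out, which leaves 1 bIRI library and no spread within that group. Krt18 lost its call without Sham replicate 1 or 2, without bIRI replicate 3, and without BHBNa_bIRI replicate 1 or 3. With only the groups compared in the fit, the adjusted p in edgeR was 0.125 for Krt7, 0.108 for Krt18 and 0.110 for Krt19.

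Transcript length and GC content moved with this comparison. Over 12390 genes, Spearman's rho between length and the log2 fold change of BHBNa_bIRI against bIRI was -0.537, and between GC content and that fold change 0.446, as a description. 4 of the keratin transcripts, of 1437 to 1958 bases, were shorter than the median gene tested, at 2760 bases, and Krt7, at 4094 bases, was longer. With offsets for length and GC content, the log2 fold change was 1.04 for Krt7 (adjusted p = 0.0520, edgeR), 0.68 for Krt18 (adjusted p = 0.0798, edgeR) and 0.56 for Krt19 (adjusted p = 0.2465, edgeR). Krt8, not called in either fit, had 0.95 with the offsets and 1.32 without, and Krt20 had -0.72 with them and -0.71 without. The fold changes of Krt8, Krt18 and Krt19 were thus smaller with the offsets, and those of Krt7 and Krt20 were not.

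**Figure D2:**
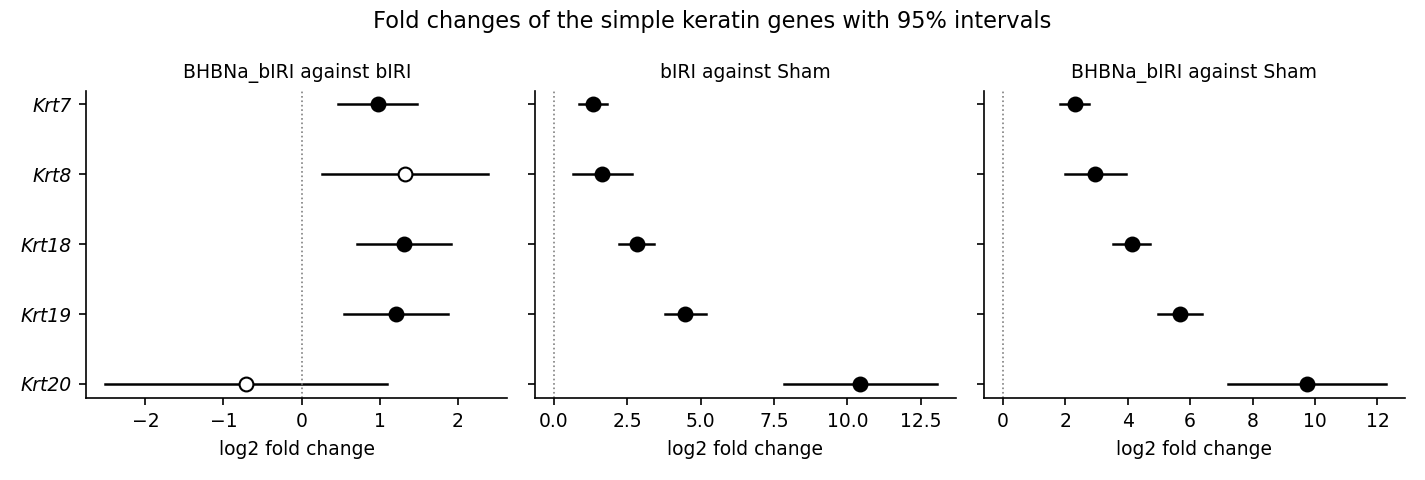
Log2 fold changes with 95% intervals from the edgeR fit for the 5 keratin genes in each comparison, where filled points passed an adjusted p of 0.05 and open points did not. Krt20 lies farthest from 0 in each comparison with Sham and has the widest interval in each panel.

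Levels were compared between genes after division by transcript length, as CPM per kb of the longest protein-coding transcript. Which transcripts were present was not determined. The gene of Krt7 is annotated from 101411043, before its RefSeq window at 101412153, so 4094 bases may exceed the transcript present. The levels per kb of Krt7 would then be too low. In BHBNa_bIRI libraries Krt8 was the most abundant at 755 ± 181 CPM per kb, followed by Krt18 at 293 ± 55.5 (SD, n = 3). The levels per kb of Krt7, Krt19 and Krt20 in BHBNa_bIRI libraries were 147 ± 27.0, 124 ± 37.6 and 121 ± 24.4 (SD, n = 3), and their ranges overlapped. In bIRI replicate 1, Krt8 (472 CPM per kb) and Krt20 (373) led, with Krt18 at 132, Krt7 at 80.9 and Krt19 at 45.7. In bIRI replicate 3, Krt8 (130.2 CPM per kb) and Krt18 (104) led, with Krt7 at 69.0, Krt19 at 61.3 and Krt20 at 21.7. Krt20 was thus in the second place in one bIRI library and in the last in the other. In Sham libraries the order was Krt8 at 96.4 ± 13.2 CPM per kb, Krt7 at 29.9 ± 3.10, Krt18 at 16.7 ± 4.09, Krt19 at 2.40 ± 0.582 and Krt20 at 0.142 ± 0.0978 (SD, n = 3), with no overlap between neighbours.

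The balance of chain types differed between groups. Type I chains of the family, summed per kb, were 0.479, 0.720 and 0.620 of type II chains in BHBNa_bIRI libraries, 0.996 and 0.937 in bIRI libraries, and 0.121, 0.168 and 0.166 in Sham libraries. Type II transcripts were therefore in excess in every library, by the least in bIRI and by the most in Sham. Krt20 made up 373 of the 551 type I CPM per kb in bIRI replicate 1, but 21.7 of 187 in bIRI replicate 3. The ratio in bIRI replicate 1 thus rested largely on Krt20, which differed 17.2-fold between the bIRI libraries. The 5 genes made up 93.4 to 96.5% of all keratin transcripts per kb in BHBNa_bIRI libraries, 96.6 and 83.9% in bIRI replicates 1 and 3, and 93.6 to 93.9% in Sham libraries. Of all counts, they took 0.251 to 0.290% in BHBNa_bIRI libraries, 0.248 and 0.113% in bIRI libraries, and 0.0287 to 0.0339% in Sham libraries.

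For the partners Krt8 and Krt18, the ratio of Krt8 to Krt18 per transcript length was 3.40, 1.96 and 2.51 in BHBNa_bIRI libraries, 3.58 and 1.26 in bIRI libraries, and 7.45, 4.91 and 5.45 in Sham libraries. Both injured groups lay below the Sham libraries without overlap, and they overlapped each other. The mean log2 ratio differed by 0.27 in BHBNa_bIRI against bIRI (two-sided exact permutation p = 0.7, adjusted p = 0.7 over 3 comparisons). It differed by -1.46 in bIRI against Sham and by -1.19 in BHBNa_bIRI against Sham (exact permutation p = 0.1 each, adjusted p = 0.15), where 0.1 is the smallest p that these numbers of libraries allow. Without bIRI replicate 3 the difference was -0.49 in BHBNa_bIRI against bIRI and -0.71 in bIRI against Sham. Without bIRI replicate 1 these differences were 1.02 and -2.22.

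**Figure D3:**
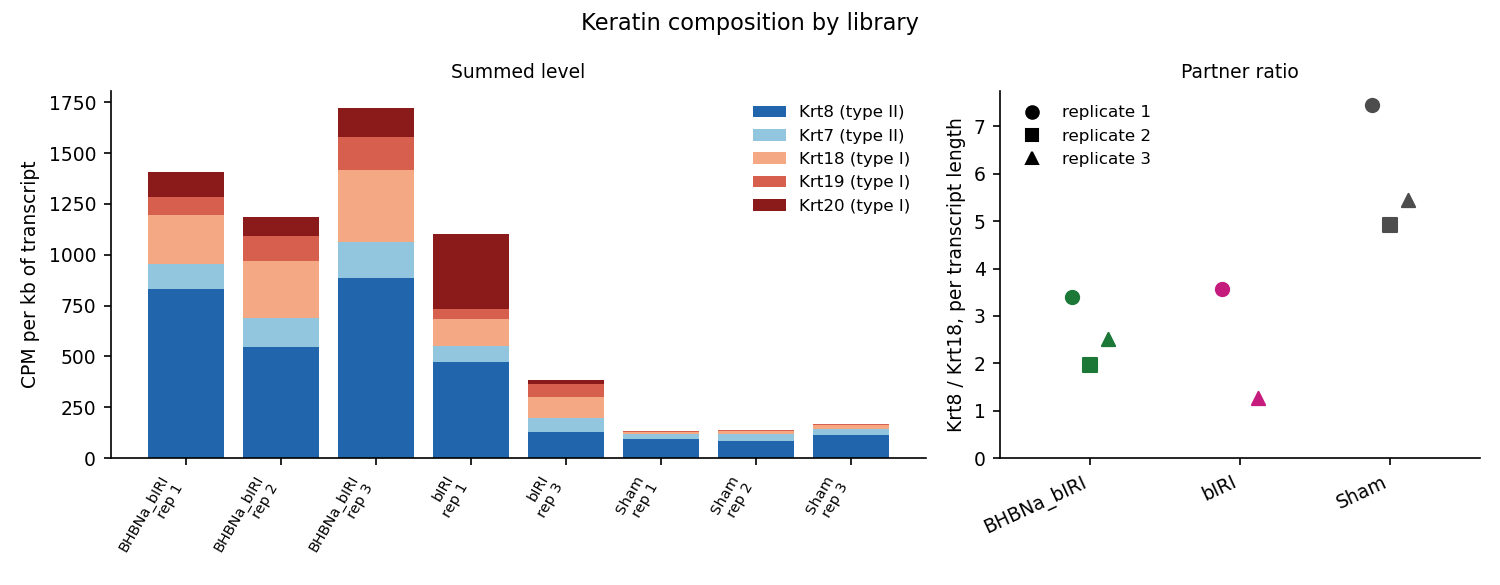
Left, summed CPM per kb of the 5 keratin genes in each library, split by gene (blue for type II, red for type I). Right, the ratio of Krt8 to Krt18 per transcript length in each library, which is 4.91 or more in Sham and 3.58 or less in injured libraries.

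Of 33 other protein-coding keratin genes, which serve mainly stratified epithelia and hair, 14 could be tested and 8 reached a group mean of 1 CPM. Krt10, the keratin of differentiating epidermis, was the 1 of 14 called higher in BHBNa_bIRI against bIRI, where 4.88% of all genes were. In bIRI against Sham, 8 of 14 were called higher (Krt4, Krt5, Krt13, Krt14, Krt15, Krt17, Krt23 and Krt79), where 18.9% of all genes were. In BHBNa_bIRI against Sham these and Krt10 and Krt80 were called higher, 10 of 14, where 21.3% of all genes were. No call was lower in edgeR, and none of the 14 was lower at an unadjusted p under 0.05 or in DESeq2. Their median log2 fold changes were 0.46, 3.83 and 3.55, against -0.05, 0.08 and 0.04 over all genes. Krt4 and Krt17, with 4 and 2 counts in all in Sham libraries, passed the low-count filter through the injured groups only. For such genes a call against Sham could only be higher, so the counts and medians against Sham are a description. The call of Krt10 in BHBNa_bIRI against bIRI was lost with the length and GC offsets. There 0 of 14 were called higher, and 2 of all genes tested were called. The count called lower in that comparison changed when bIRI replicate 1 was left out, which leaves 1 bIRI library.

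Krt5, which with Krt14 forms the pair of basal cells in layered epithelium, had 37.4, 64.9 and 31.2 CPM in BHBNa_bIRI libraries, 16.9 and 45.15 CPM in bIRI libraries, and 1.04, 0.685 and 1.81 CPM in Sham libraries. Krt14 had 26.6, 28.6 and 18.1 CPM in BHBNa_bIRI libraries, 11.6 and 15.2 CPM in bIRI libraries, and 0.447, 0.0685 and 0.569 CPM in Sham libraries. Both were above Sham in each injured library, and Krt14 was also higher in BHBNa_bIRI than in bIRI without overlap, but not called (log2 fold change 0.87, adjusted p = 0.203, edgeR). Krt4, a type II keratin of layered mucosa, had 5.50, 8.10 and 6.63 CPM in BHBNa_bIRI libraries, 12.7 and 10.2 CPM in bIRI libraries, and 4 counts in all in Sham libraries. It was lower in BHBNa_bIRI than in bIRI without overlap, but not called (log2 fold change -0.76, adjusted p = 0.152, edgeR). Krt17, a keratin of wounded skin, had 140 counts in BHBNa_bIRI, 75 in bIRI and 2 in Sham libraries. Its ratio to Sham was 68.1 in BHBNa_bIRI (95% interval 18.5 to 568) and 50.3 in bIRI (95% interval 13.4 to 423), intervals that cover counting error only. Krt23, a type I keratin, had 12.2, 15.1 and 16.8 CPM in BHBNa_bIRI libraries, 8.38 and 10.3 CPM in bIRI libraries, and 2.29, 2.90 and 2.66 CPM in Sham libraries, the same order of groups as Krt7, Krt18 and Krt19.

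**Figure D4:**
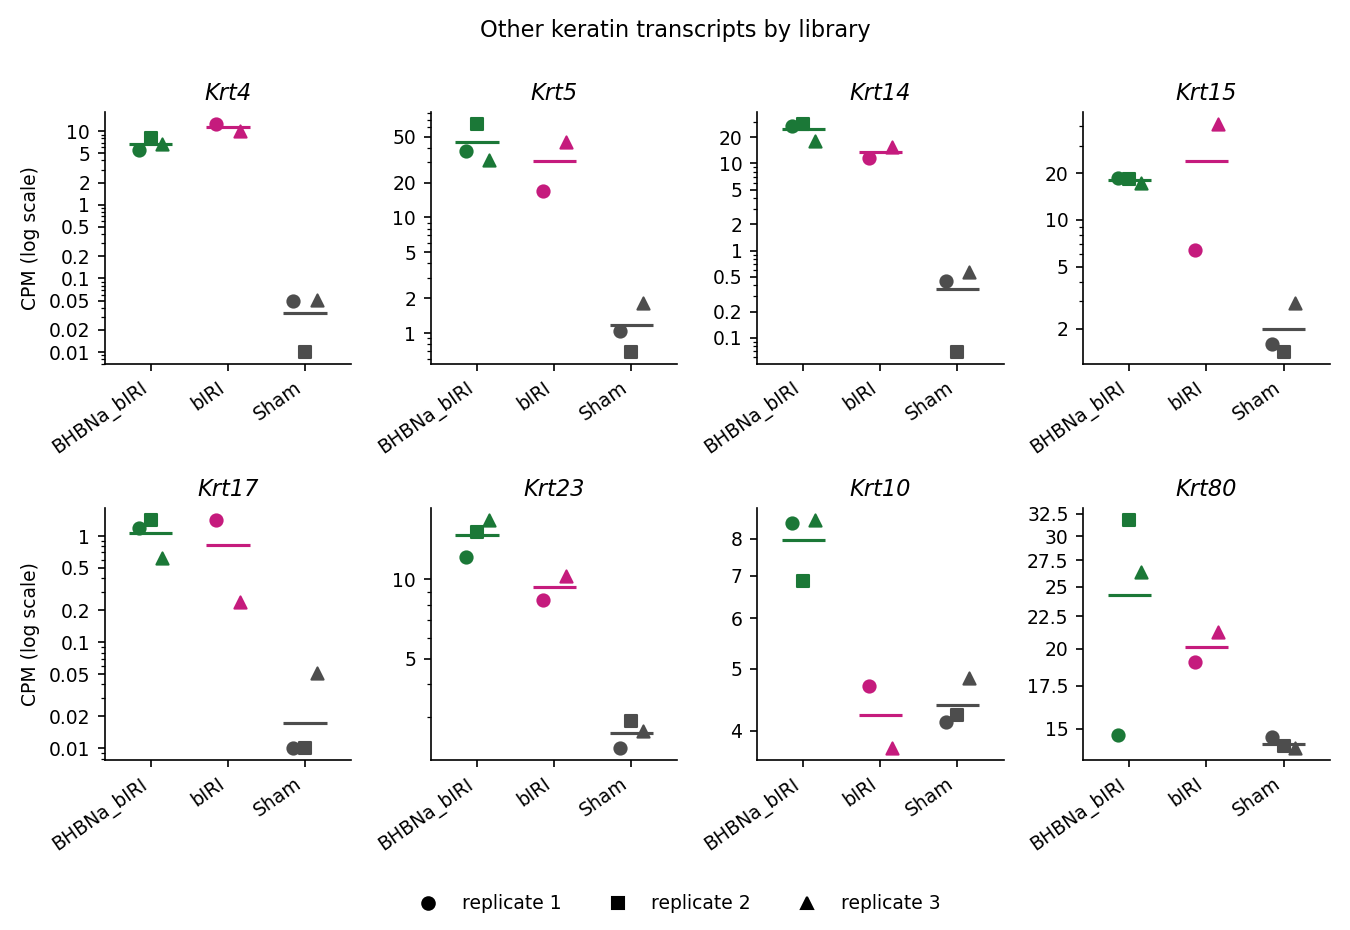
CPM (log axis, a different range in each panel) of the 8 other keratin genes with a group mean of at least 1 CPM, by library, with a line at the group mean; libraries with no count are drawn at 0.01 CPM. Krt4, Krt5, Krt14, Krt15, Krt17 and Krt23 are lowest in each Sham library, and Krt10 is highest in BHBNa_bIRI.

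Markers of other epithelia and of mesothelium were summed beside these values. The 7 urothelial markers, of which Krt5 is one, summed to 77.3, 183 and 96.2 CPM in BHBNa_bIRI libraries, 37.4 and 228 CPM in bIRI replicates 1 and 3, and 14.2, 19.9 and 18.2 CPM in Sham libraries, with none at 0. Of the 7, 5 were called higher in BHBNa_bIRI against Sham, against 21.3% of all genes, and 4 in bIRI against Sham, against 18.9% of all genes (edgeR). Krt20 did not follow this sum in the bIRI libraries, being 719 CPM in replicate 1, where the sum was 37.4, and 41.9 CPM in replicate 3, where it was 228. Krt15, a basal keratin, had 18.6, 18.3 and 17.4 CPM in BHBNa_bIRI libraries and 6.39 and 41.6 CPM in bIRI replicates 1 and 3, so it moved with the sum in the bIRI libraries and was flat in the BHBNa_bIRI libraries, where the sum was not. The 3 mesothelial markers measured, out of 4, summed to 25.2 to 45.2 CPM in BHBNa_bIRI, 23.4 and 59.8 CPM in bIRI, and 2.56 to 6.51 CPM in Sham libraries, with Lrrn4 at 0 in 5 libraries. The 8 markers of collecting duct principal cells, a normal site of Krt7 and Krt19, summed to 1045 to 1099 CPM in BHBNa_bIRI libraries, 612.5 and 1441 CPM in bIRI replicates 1 and 3, and 752.5 to 941 CPM in Sham libraries. Of these 8, Avpr2 was at 0 in bIRI replicate 1, and 7 could be tested. Aqp2 and Fxyd4 were called higher in BHBNa_bIRI against Sham and Aqp3, Scnn1g and Hsd11b2 lower, with a median log2 fold change of -0.43, and Fxyd4 was also called higher in BHBNa_bIRI against bIRI (edgeR). Aqp4 and Fxyd4 were called higher in bIRI against Sham and Hsd11b2 lower, with a median of -0.04, and the bIRI sums lay on both sides of the Sham sums. The 4 intercalated cell markers summed to 83.5 to 115 CPM in BHBNa_bIRI libraries, 111 and 212 CPM in bIRI libraries, and 183 to 199.5 CPM in Sham libraries, with none at 0. Of these, Slc4a1 had means of 5.09 CPM in BHBNa_bIRI and 95.5 CPM in Sham libraries, with 1.44 and 62.1 CPM in bIRI libraries. It was called lower in BHBNa_bIRI against Sham (edgeR). Atp6v1g3 and Atp6v0d2 were called higher in bIRI against Sham, and Atp6v0d2 lower in BHBNa_bIRI against bIRI (edgeR). Foxi1 was not called in any comparison. The 3 markers of thick ascending limb and distal tubule (Umod, Slc12a1 and Slc12a3) summed to 897, 325 and 757 CPM in BHBNa_bIRI libraries, 1540 and 4441 CPM in bIRI replicates 1 and 3, and 3447, 3486 and 1943 CPM in Sham libraries, with none at 0. Umod and Slc12a1 were called lower in BHBNa_bIRI against bIRI, where 8.65% of all genes were (edgeR). All 3 were called lower in BHBNa_bIRI against Sham, where 22.2% of all genes were (edgeR). Slc12a1 had 17.8 to 25.3 CPM in BHBNa_bIRI libraries, and 33.1 and 1114 CPM in bIRI replicates 1 and 3. Its fold change between the injured groups thus rested largely on bIRI replicate 3. The part of these cell types in the keratin levels was not tested.

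The 8 markers of injured tubule, which include Havcr1 (the kidney injury molecule KIM-1) and Lcn2 (NGAL), summed to 3035, 2942 and 3422 CPM in BHBNa_bIRI libraries, 4681 and 1732 CPM in bIRI replicates 1 and 3, and 153, 173 and 145 CPM in Sham libraries, with none at 0. As with Krt20, the BHBNa_bIRI libraries lay between the bIRI libraries. Havcr1 (1235 CPM) and Lcn2 (1488 CPM) made up most of the sum in BHBNa_bIRI replicate 1. Of the 8, 0 were called in BHBNa_bIRI against bIRI in edgeR, 0 at an unadjusted p under 0.05 and 0 in DESeq2. There 4.88% of all genes were called higher and 8.65% lower in edgeR. Of 17967 genes, 6191 had an unadjusted p under 0.05 in edgeR, and DESeq2 called 4210. Against Sham, 6 of the 8 were called higher in bIRI and 7 in BHBNa_bIRI (edgeR), where 18.9% and 21.3% of all genes were. Sox9, with 8, 5 and 8 counts in Sham libraries, could only be called higher. The part of these markers in the keratin levels was not tested.

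For each keratin gene, the genes nearest to it in profile were found among 11204 genes by the root mean square difference of log2 CPM, centred per gene, over 8 libraries. Nearest to Krt8 were S100a10 (0.124), an annexin-binding protein, Ppp1r14b (0.149) and Jpt1 (0.201). Nearest to Krt7 were Lrfn4 (0.138), Serinc2 (0.177) and Nrm (0.179). Krt18 was nearest to Tmsb10 (0.236), an actin-binding thymosin, Anxa2 (0.256), an annexin that binds S100a10, and Capg (0.312), an actin-capping protein. Krt19 was nearest to Sprr1a (0.295), a cornified envelope protein, S100a14 (0.331) and Oit1 (0.355). Krt20 had no gene as near. Its nearest were Lcn2 (0.777), Havcr1 (0.790) and Sprr2g (0.931), a gene with near copies that may share its reads. Between keratin genes, the difference was 0.561 for Krt7 and Krt8, 0.783 for Krt8 and Krt18, and 0.792 for Krt18 and Krt19, while that of Krt20 to the other 4 was 2.41 to 3.82. This measure grows with the size of change, which was largest for Krt20. By rank among the 11204 genes, Krt19 was 32, Krt18 86, Krt8 210 and Krt7 380 from Krt20. Krt20 was 3312 from Krt19 and 11196 from Krt7. Krt8 was 625 from Krt7 and Krt7 161 from Krt8. Krt18 was 541 from Krt8 and Krt8 136 from Krt18. Krt19 was 141 from Krt18 and Krt18 20 from Krt19.

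**Figure D5:**
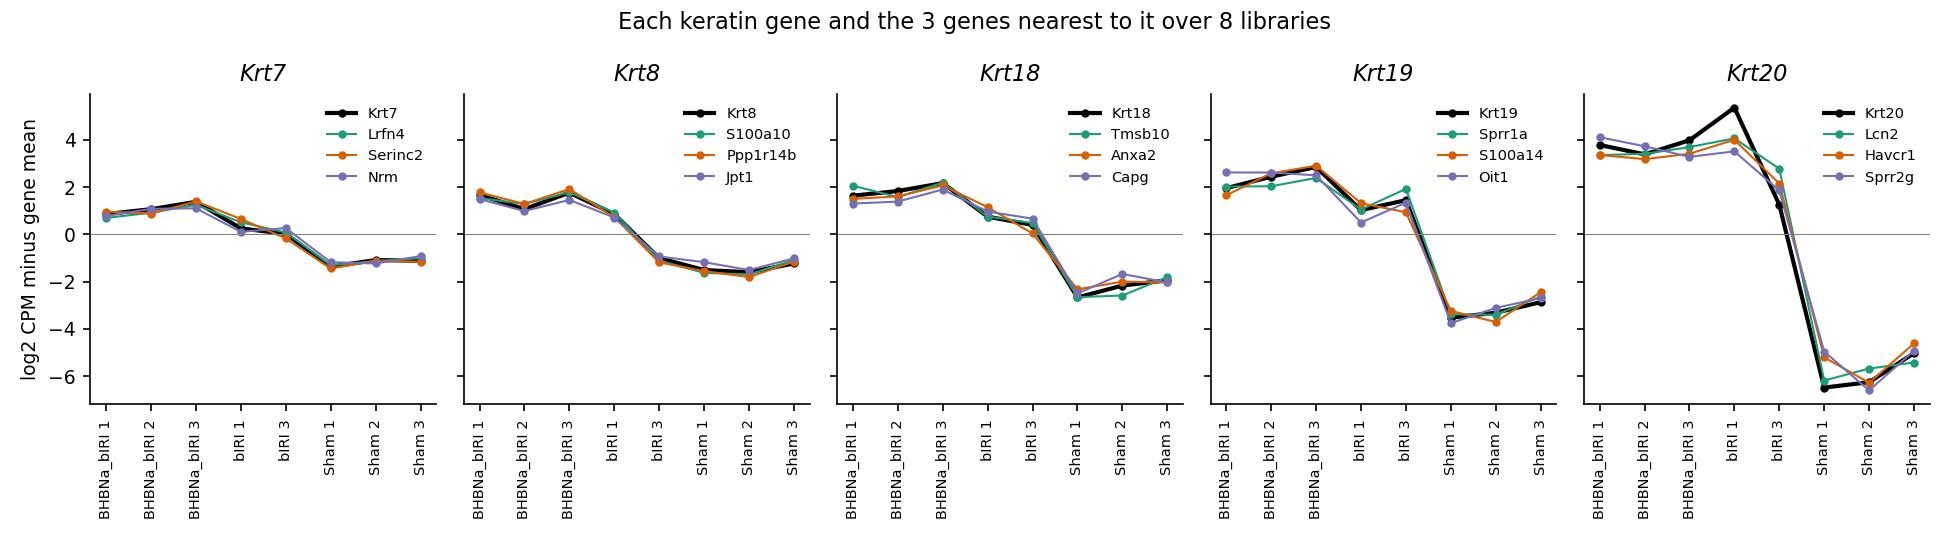
Log2 CPM minus the gene's own mean in each of 8 libraries, for each keratin gene (black) and the 3 genes nearest to it (colours); lines join libraries for reading only. The profile of Krt20 peaks in bIRI replicate 1, and that of Krt8 drops to near the Sham level in bIRI replicate 3.

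Genes whose proteins bind or anchor keratin filaments, such as plakins and desmosomal proteins, formed a list of 11 measured genes. In bIRI against Sham, 5 of 11 were called higher and none lower (none at an unadjusted p under 0.05 or in DESeq2), where 18.9% of all genes were called higher. In BHBNa_bIRI against Sham 5 were higher and 1 lower, where 21.3% of all genes were called higher and 22.2% lower. Pkp1, called higher in both, had 10, 6 and 6 counts in Sham libraries. It passed the low-count filter through the injured groups, so its calls against Sham could only be higher. The calls in BHBNa_bIRI against bIRI were 3 of 11 lower (Ppl, Dst and Dsg2) and none higher (none at an unadjusted p under 0.05 or in DESeq2), where 8.65% of all genes were called lower. This is the opposite direction to Krt7, Krt18 and Krt19. In this comparison longer transcripts tended to have lower fold changes (Spearman's rho -0.537 over 12390 genes). The part of transcript length in this contrast was not tested. The list's median log2 fold change in that comparison was -0.85, against -0.05 over all genes. Ppl, the plakin periplakin, had 15.9, 24.7 and 21.8 CPM in BHBNa_bIRI libraries, 43.5 and 86.2 CPM in bIRI libraries, and 4.47, 7.35 and 4.13 CPM in Sham libraries. It was highest in bIRI and lowest in Sham, with no overlap, and its log2 fold change was -1.64 in BHBNa_bIRI against bIRI (SE 0.34, adjusted p = 0.0288, edgeR). Dst had 48.0 to 49.7 CPM in BHBNa_bIRI libraries, and 65.1 and 185 CPM in bIRI replicates 1 and 3. The size of its change between the injured groups thus rested largely on bIRI replicate 3. Plec, which encodes plectin, the linker of keratin filaments to other structures, had 205 to 211 CPM in BHBNa_bIRI, 162 and 195 CPM in bIRI, and 56.8 to 74.9 CPM in Sham libraries. With the length and GC offsets, 0 of the 11 were called lower in BHBNa_bIRI against bIRI, where 2 of all genes tested were called. The counts of this list changed in each comparison when either bIRI library was left out, which leaves 1 bIRI library.

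Of 9 other intermediate filament genes, 8 were called higher in BHBNa_bIRI against Sham, against 21.3% of all genes, and 4 in bIRI against Sham, against 18.9% of all genes. Prph, among these 8, had 16, 204 and 20 counts in BHBNa_bIRI and 0, 8 and 4 in Sham libraries. Its level thus rested largely on BHBNa_bIRI replicate 2. Prph passed the low-count filter through BHBNa_bIRI only, so a call in BHBNa_bIRI could only be higher. With the length and GC offsets, 7 were called higher in bIRI against Sham, where 6566 of all genes were called in either direction. The list's median log2 fold changes were 1.77 and 0.90, against 0.04 and 0.08 over all genes. None of the 9 was called in BHBNa_bIRI against bIRI in edgeR, while 3 had an unadjusted p under 0.05 and 3 were called in DESeq2. Of 17967 genes tested in edgeR, 6191 had an unadjusted p under 0.05 there, and DESeq2 called 4210 genes. Vim, the mesenchymal filament vimentin, had 346, 385 and 324 CPM in BHBNa_bIRI libraries, 256 and 98.5 CPM in bIRI libraries, and 48.45, 47.4 and 62.25 CPM in Sham libraries. Lmna, which encodes the nuclear lamins A and C, had 327, 283 and 382 CPM in BHBNa_bIRI libraries, 215 and 91.0 CPM in bIRI libraries, and 79.5, 80.5 and 96.1 CPM in Sham libraries. Vim and Lmna, as Krt8, were without overlap between the injured groups, higher in BHBNa_bIRI, and not called. The count called higher in BHBNa_bIRI against bIRI changed when bIRI replicate 1 was left out, which leaves 1 bIRI library.

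Among 12 genes that process or regulate keratins, 4 were called higher in bIRI against Sham (Tchp, Pnn, Sfn and Hspb1), where 18.9% of all genes were. In BHBNa_bIRI against Sham 4 were higher and 2 lower, where 21.3% of all genes were called higher and 22.2% lower. The median log2 fold changes were 0.32 and 0.53, against 0.08 and 0.04 over all genes. Hspb1, the small heat shock protein that associates with keratin filaments, had 199, 143 and 274 CPM in BHBNa_bIRI libraries, 165 and 32.65 CPM in bIRI libraries, and 9.29, 12.1 and 16.8 CPM in Sham libraries. Sfn, which encodes the epithelial 14-3-3 protein sigma, had 156, 127 and 161 CPM in BHBNa_bIRI libraries, 125 and 45.1 CPM in bIRI libraries, and 6.39, 7.17 and 7.54 CPM in Sham libraries. Both were above Sham in each injured library and, as Krt8, lower in bIRI replicate 3 than in replicate 1. In BHBNa_bIRI against bIRI, Pnn (log2 fold change -2.39, adjusted p = 0.0275, edgeR), a desmosome-associated and splicing protein, and Dnajb6 (-0.76, adjusted p = 0.0306), the chaperone of Krt18, were called lower. With the length and GC offsets neither was, where 2 of all genes tested were called in that comparison. Pnn had 10.4 to 13.5 CPM in BHBNa_bIRI libraries, and 23.3 and 99.8 CPM in bIRI replicates 1 and 3. The size of its change thus rested largely on bIRI replicate 3. The counts of this list changed in each comparison when either bIRI library was left out, which leaves 1 bIRI library.

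Of 15 transcription factors of epithelia, 8 were called higher and 2 lower in bIRI against Sham, where 18.9% of all genes were called higher and 16.2% lower. In BHBNa_bIRI against Sham 6 were higher and 1 lower, against 21.3% and 22.2% of all genes. The median log2 fold changes were 1.32 and 0.72, against 0.08 and 0.04 over all genes. In BHBNa_bIRI against bIRI, 0 of 15 were called in edgeR, while 6 had an unadjusted p under 0.05 (2 higher, 4 lower) and DESeq2 called 1 higher and 1 lower. Of 17967 genes tested in edgeR, 6191 had an unadjusted p under 0.05 there, and DESeq2 called 4210 genes. Klf5, a Krüppel-like factor, had 30.8, 25.5 and 26.9 CPM in BHBNa_bIRI libraries, 16.55 and 19.7 CPM in bIRI libraries, and 1.86, 2.88 and 1.525 CPM in Sham libraries. Its groups did not overlap and stood in the order of Krt7, Krt18 and Krt19. Fosl1, an AP-1 subunit, had 4.62, 2.002 and 2.99 CPM in BHBNa_bIRI libraries, 6.79 and 2.16 CPM in bIRI libraries, and 5 counts in all in Sham libraries. Fosl1 passed the low-count filter through the injured groups only, so its calls against Sham could only be higher. In bIRI against Sham, 1 was lower with the length and GC offsets, where 6566 of all genes were called in either direction. The list counts in BHBNa_bIRI against bIRI and in BHBNa_bIRI against Sham changed when either bIRI library was left out, which leaves 1 bIRI library.

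Some reads may be shared between loci. Krt8-ps, a pseudogene 98.6% identical to the Krt8 transcript over 941 bases, had 4 to 49 counts in each library. Gm5200, a pseudogene 90.45% identical to the Krt18 transcript over 1267 bases, was not analysed here. Krt7 overlaps the antisense gene Gm671 over 1269 bases and Krt8 overlaps Gm36026 on the other strand over 271 bases. Those genes had 423 and 45 counts over all 9 tables, and since the strand setting of the counting was not given in the sources used here, reads of such overlaps cannot be assigned with certainty.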

How the data were processed

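RNA was measured in 9 kidney libraries in groups named by the labels. Per the labels' protocols, messenger RNA was captured with oligo(dT) beads and sequenced paired-end. Per the submitters' processing notes, the tools were HISAT2, featureCounts of Subread and DESeq2, with the build mm10. Tool versions, gene annotation and strandedness are not given in the sources used here. Raw whole-number counts per gene were deposited by the authors, 1 table a library.

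The replicate 2 table of bIRI was left out, being the mean of bIRI replicates 1 and 3. Symbols and transcript lengths came from GENCODE M21 (29220 of 29678 rows named). In edgeR 4.0.16 (R 4.3.3), low counts were removed with filterByExpr, leaving 17967 genes, counts were TMM-scaled (factors 0.830 to 1.37), and the quasi-likelihood test was fitted to the 8 libraries with 1 mean per group (5 residual degrees of freedom). Tests were two-sided, with Benjamini-Hochberg adjustment over all genes tested and a threshold of 0.05. The fit was tested on simulated data.

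The ratio of Krt8 to Krt18 used 0.5 added counts and an exact permutation test over libraries. Named were the 5 keratin genes, other keratins with a group mean of at least 1 CPM, and up to 4 genes a list by size of change; Dst, Dsg2, Lmna and Dnajb6, and the keratins Krt13 and Krt79, were named where a call or level was singled out after values were seen. Promoter sequences are from RefSeq GRCm38.p6. Alternatives were DESeq2 1.42.0, upper-quartile or RLE factors, TMM computed without mitochondrial and the top 20 genes, other filters, other sets of libraries, length and GC offsets (17928 genes, 99.78%, had both), and a replicate block. Members and lists were chosen with earlier results of these data known. The list counts under length and GC offsets, and the check of list counts without a bIRI library, were added after seeing the data.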

Additional observations from a re-analysis of the deposited data

How the results depend on the processing

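All log2 fold changes of the 5 keratin genes against Sham kept their sign over 19 alternatives, and calls against Sham were lost for Krt8 only: in bIRI against Sham it was 1.65 with only the groups compared and 1.34 with the replicate block, and ranged from 0.36 to 2.29 with single libraries left out. In BHBNa_bIRI against bIRI, Krt8 was called with DESeq2 (1.34) and with all 9 tables (1.35). There Krt7, Krt18 and Krt19 were not called with only the groups compared (0.97, 1.31 and 1.21), with length and GC offsets (1.04, 0.68 and 0.56), with the replicate block (0.94, 1.26 and 1.19) or with the replicate block and offsets (1.01, 0.60 and 0.54). Krt20 turned to 0.046 with the replicate block and 0.026 with the replicate block and offsets. The cause was not tested. With libraries left out in turn, the ranges in this comparison were 0.82 to 1.15 for Krt7, 0.67 to 2.59 for Krt8, 1.14 to 1.55 for Krt18, 0.97 to 1.43 for Krt19, -1.63 to 2.53 for Krt20, and -0.49 to 1.02 for the log2 ratio of Krt8 to Krt18.

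The number of genes called in BHBNa_bIRI against bIRI, 2431, was 4210 with DESeq2, 5847 with all 9 tables, 1 with only the groups compared, 2 with length and GC offsets, 0 with the replicate block and 0 with the block and offsets. Where a bIRI library was left out, the lone one was assumed to vary like the other groups. The count ranged from 0 to 8381 with libraries left out; with the block, 5270 genes had an unadjusted p under 0.05 in edgeR, and with the block and offsets 3801. In bIRI against Sham the count ranged from 4180 to 9064 with libraries left out. Same-numbered libraries correlated at -0.206 to 0.0925 in their deviations, so the numbers were not taken to pair samples.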
